A study of Arabidopsis thaliana with 12 samples.

Results

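The loss of a single prefoldin subunit was examined in Arabidopsis thaliana, by setting the transcripts of pfd4 seedlings against those of wild-type (WT) seedlings at 14 days. Whole seedlings of the Col-0 ecotype were grown in vitro under the growth label LD, which usually stands for long days, and were collected at ZT1, shortly after lights on. There were 3 pfd4 samples and 3 WT samples, and their titles carry the word mock while the labels describe no treatment. The labels give the mutant only as pfd4 and name neither its allele nor the number of lines behind the 3 samples. All 18366 genes of the table deposited for this comparison were taken, of 19710 genes with a row in any comparison of the series, and 6 of its 12 samples stand behind them. The other experiment of the series, used here only for side-by-side values, set 3 samples of 7-day Col-0 seedlings labelled 6x_pfd against 3 WT samples of the same age, both grown in vitro under the label LL, which usually stands for continuous light. It shares no samples with the 14-day experiment.

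Prefoldin is a jellyfish-shaped chaperone of the cytosol that binds unfolded tubulin and actin as they leave the ribosome and hands them to the ring-shaped chaperonin CCT. Its subunits, PFD1 to PFD6, are conserved from yeast to plants and animals. In Arabidopsis, mutants of prefoldin subunits are known for disturbed microtubules and for altered growth and stress responses.

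Values come from the authors' deposited table. It holds for each gene a mean normalized count over the 6 libraries, a log2 fold change of pfd4 over WT with its standard error (SE), and p-values from DESeq2, raw and adjusted. A fold change is given below on the log2 scale as value ± SE, and a gene is called higher or lower at an adjusted p below 0.05. The table gives no values per library, so the spread between the 3 samples of a group enters only through the SE and no sample can be shown by itself. The level given for each group is an estimate in normalized counts, made by splitting the deposited mean by the deposited fold change. Levels are not divided by gene length and are set side by side only within a gene.

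Of the 18363 genes with a p-value, 1423 were called, which is 7.75% of those tested. The calls were 724 higher genes (3.94%) and 699 lower genes (3.81%) in pfd4. Most of these differences were small: the median size among called genes was 0.49 on the log2 scale, 889 called genes changed by less than 1.5-fold, and 147 higher and 51 lower genes changed by 2-fold or more. Against a change of 25% in place of no change, a Wald test on the deposited values called 165 genes, 128 higher and 37 lower, so most called differences were not separated from a change of that size. The median log2 fold change over all genes was -0.0030, and the interquartile range ran from -0.13 to 0.12. Calls were more frequent among genes with high counts: in the lowest quintile by mean count, where the median SE was 0.242, 4.47% of genes were called, and in the highest quintile, where the median SE was 0.0938, 12.3% were called. A gene with few counts therefore had to change more to be called, by at least 0.49 in the lowest quintile and by 0.18 in the highest.

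The marker genes of the leaf were present at high levels in the deposited table, and none of 6 floral organ and meristem identity genes was listed. The 8 measured mesophyll markers had mean counts between 42217 and 481167, and 2 of them, the antenna genes LHCB1.1 and LHCB1.2, were called higher in pfd4. Root markers were also present, 10 of 12, with a summed level of 68143 in pfd4 and 62916 in WT that came mostly from the beta-glucosidase gene PYK10. Of these root markers, 2 were called lower and none higher, and their median log2 fold change was -0.28. Of 6 vascular markers, CESA7 and XCP1, both genes of the xylem, were called lower. In whole seedlings, fewer cells of a type and less RNA per cell cannot be told apart, for these markers and for all gene groups below.

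**Figure D1:**
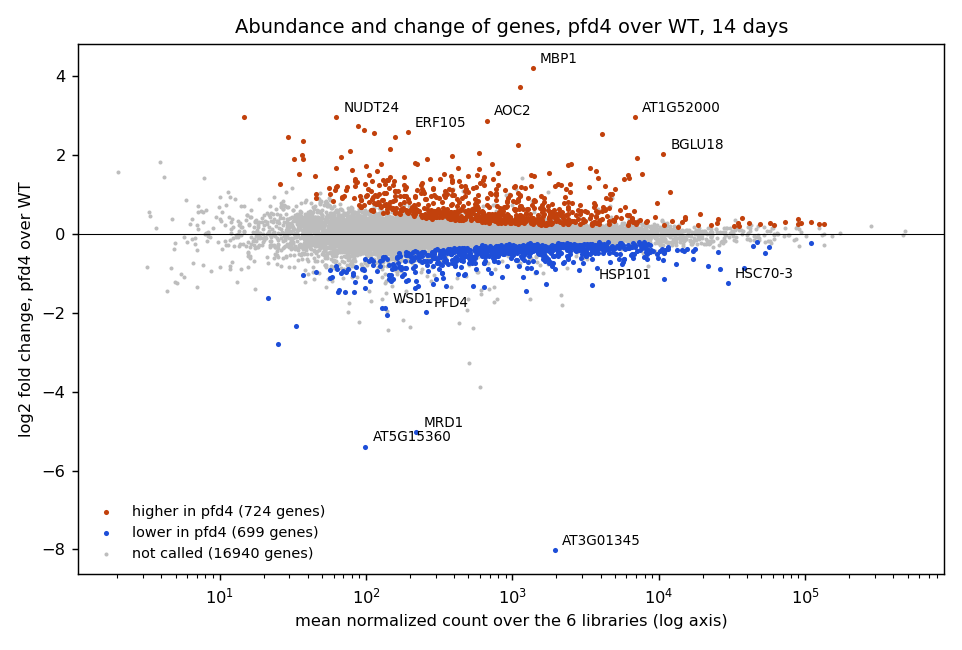
Each point is a gene of the deposited pfd4 table, with its mean normalized count over the 6 libraries on a log axis and its log2 fold change, pfd4 over WT. The 724 genes called higher reach a log2 fold change of 4.21 at MBP1, while 3 genes called lower, AT3G01345, AT5G15360 and MRD1, lie below -5.

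The gene named in the label of the mutant was called lower in it. PFD4 had an estimated 104 normalized counts in pfd4 seedlings and 411 in WT seedlings, a log2 fold change of -1.99 ± 0.17 (adjusted p = 1.01e-29, DESeq2), so its transcript was reduced but not absent. The other 5 subunit genes were not called: their log2 fold changes were 0.11 ± 0.12 for PFD1, 0.03 ± 0.10 for PFD2, 0.08 ± 0.09 for PFD3, 0.00 ± 0.12 for PFD5 and 0.03 ± 0.10 for PFD6. The change was thus called for the targeted subunit and for no other. The fall of PFD4 also served to check the direction of the fold changes, so its sign is not a separate result. Of 10 genes that flank PFD4 on chromosome 1, 6 were measured and 2 were called higher. These were PRA1.E, the neighbour next to PFD4, at 0.52 ± 0.14 (adjusted p = 0.00383), and MYB60, which encodes a guard-cell transcription factor, at 0.45 ± 0.12 (adjusted p = 0.00641). The remaining measured neighbours had values of 0.06 (AT1G08750), 0.23 (AT1G08760), -0.04 (AT1G08800) and 0.04 (VAP27-2).

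Genes of the jasmonate pathway, through which plants respond to wounding and insects, were called higher in pfd4 at the levels of synthesis, repression and output. Jasmonate is made from a plastid fatty acid by lipoxygenase, allene oxide synthase and allene oxide cyclase, and then by OPR3 in the peroxisome. The authors' deposited table called 6 of 14 synthesis genes higher and none lower, with a median log2 fold change of 0.34 against -0.0030 over all genes. The estimated level of AOC2, an allene oxide cyclase, was 1175 in pfd4 and 161 in WT, a log2 fold change of 2.87 ± 0.24 (adjusted p = 9.53e-29). Its tandem neighbour AOC1 stood at 646 in pfd4 and 202 in WT, at 1.67 ± 0.14 (adjusted p = 7.51e-28), whereas the other 2 cyclase genes were not called, AOC3 at 0.23 ± 0.24 and AOC4 at 0.16 ± 0.16. The sources used here do not say how reads shared by these similar cyclase genes were counted. The lipoxygenase gene LOX2 had a level of 11229 in pfd4 and 2964 in WT (1.92 ± 0.29, adjusted p = 8.85e-09). AOS, the allene oxide synthase, reached 4582 in pfd4 and 2756 in WT (0.73 ± 0.13), OPR3 914 in pfd4 and 658 in WT (0.47 ± 0.11) and the second lipoxygenase LOX4 173 in pfd4 and 102 in WT (0.77 ± 0.21). Synthesis was thus affected at several steps, but the genes of the last steps in the peroxisome, ACX1 (0.03) and KAT2 (0.03), and JAR1, which joins jasmonate to isoleucine (-0.26), were not called.

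JAZ proteins repress jasmonate responses until the hormone triggers their breakdown, and their genes are themselves induced by the hormone. Of 10 measured JAZ genes, 5 were called higher and none lower (median 0.45). JAZ5 had a level of 154 in pfd4 and 46.7 in WT (1.72 ± 0.24, adjusted p = 2.38e-10), JAZ3 of 589.5 in pfd4 and 312 in WT (0.92 ± 0.13, adjusted p = 5.03e-10) and JAZ6 of 1667 in pfd4 and 883 in WT (0.92 ± 0.14, adjusted p = 2.51e-09). JAZ9 (0.58 ± 0.13) and JAZ2 (0.41 ± 0.11) rose less. JAZ10, a widely used marker of the response, was at 0.32 ± 0.27 and was not called (adjusted p = 0.599). Among 9 genes of the receptor and its transcription factors, the calls were 2 higher: MYC2, the leading activator, at 0.35 ± 0.09 (adjusted p = 0.00572), and JAM1, a repressor of the same family, at 0.35 ± 0.10 (adjusted p = 0.0155). The receptor gene COI1 (0.07), MYC3 (0.08) and MYC4 (-0.18) were not called. Of 7 genes that break down or modify jasmonate, ILL6, an amidohydrolase, was called higher at 0.73 ± 0.18 and JOX2, a jasmonate oxidase, at 0.51 ± 0.16.

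All 5 measured genes of wound-response proteins were called higher in pfd4, with a median of 0.90. VSP2, a vegetative storage protein with acid phosphatase activity, had an estimated 1420.1 normalized counts in pfd4 seedlings and 762 in WT seedlings (0.90 ± 0.19, adjusted p = 0.000145). CORI3, a tyrosine aminotransferase, had 901 normalized counts in pfd4 seedlings and 289 in WT seedlings, with a wider error (1.64 ± 0.41, adjusted p = 0.00210). CLH1, a chlorophyllase, stood at 3182 in pfd4 and 1441 in WT, with one of the smallest p-values among the higher genes (1.14 ± 0.09, adjusted p = 3.26e-32). VSP1 (0.64 ± 0.18) and the lectin JR1 (0.39 ± 0.11) completed the group. Tested against a change of 25% instead of no change, 3 of the 6 higher synthesis genes, 3 of the 5 higher JAZ genes and 1 of the 5 wound genes were still called, so the smaller rises in these groups were distinguished from no change but not from a change of 25%.

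The largest called rise was among lectins that bind myrosinase, the enzyme that releases toxic products from glucosinolates when tissue is chewed. Of 21 measured genes of jacalin-type and myrosinase-binding lectins, 7 were called higher and none lower (median 0.15). MBP1 had an estimated 2615 normalized counts in pfd4 seedlings and 142 in WT seedlings, a log2 fold change of 4.21 ± 0.21 (adjusted p = 3.26e-83). The adjacent genes MBP2, at 558 in pfd4 and 217 in WT (1.36 ± 0.17), and AT1G52000, at 12207 in pfd4 and 1574 in WT (2.95 ± 0.15), were called higher as well, so that the 3 lectin genes form a run of adjacent measured genes on chromosome 1. AT1G73040, a lectin gene elsewhere on that chromosome, stood at 125 in pfd4 and 29.3 in WT (2.09 ± 0.25). Reads that near-identical members of this family share may have been split between them.

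ER bodies are spindle-shaped compartments of the endoplasmic reticulum that store beta-glucosidases for defence. Of 16 measured genes of ER bodies and myrosinases, 3 were called higher and 1 lower in the deposited table. BGLU18, the beta-glucosidase of wound-induced ER bodies, had 17152 normalized counts in pfd4 seedlings and 4218 in WT seedlings (2.02 ± 0.13, adjusted p = 6.05e-52). TSA1, a component of wound-induced ER bodies, had 2878 in pfd4 and 1189.7 in WT (1.27 ± 0.12), and NAI1, the transcription factor of constitutive ER bodies, 910.3 in pfd4 and 707 in WT (0.36 ± 0.12, adjusted p = 0.0291). The gene of the constitutive glucosidase, PYK10, was not called at 0.14 ± 0.07, nor were the myrosinases TGG1 (-0.22 ± 0.12) and TGG2 (-0.07 ± 0.13). The call in the other direction was ESM1, a gene that favours isothiocyanates over nitriles, at -0.51 ± 0.10 (adjusted p = 2.71e-05). Of 4 Kunitz-type protease inhibitor genes, AT1G73325 was called higher, with 153 in pfd4 and 22.8 in WT (2.74 ± 0.33), and the other 3 had negative values and were not called (median -0.29). Outside these lists, AT3G28220, which encodes a TRAF-like protein, reached 6995 in pfd4 and 1206 in WT (2.54 ± 0.16).

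The G-box CACGTG is the element bound by MYC2 and by the light-regulated PIF factors. A search of the 250 bases before the annotated gene start, on the reference TAIR10.1, found it in 78 of 701 promoters of protein-coding genes called higher (11.1%) and in 47 of 692 of those called lower (6.79%), against 7.53% of all 17774 measured protein-coding genes with a promoter. Among promoters called higher, it was present in 2 of 5 for JAZ, 1 of 7 for lectins, 1 of 6 for jasmonate synthesis and none of 5 for wound-response proteins. Among all measured members of these lists, it was present in 2 of 10, 1 of 21, 2 of 14 and 0 of 5, in that order. The promoters of MBP1, the gene with the largest rise, and of JAZ3 are shown 5′ to 3′ because they hold it, with the G-box in capitals. A match of letters is a description of the sequence, not a bound site. Other motifs were searched separately and can overlap these letters.
MBP1, chr1:19352792-19353041, minus strand: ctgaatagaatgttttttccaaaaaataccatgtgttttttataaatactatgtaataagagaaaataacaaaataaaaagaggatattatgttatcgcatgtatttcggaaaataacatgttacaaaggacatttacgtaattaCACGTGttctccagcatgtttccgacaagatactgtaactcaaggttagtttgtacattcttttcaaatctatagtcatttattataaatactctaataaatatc
JAZ3, chr3:6119457-6119706, plus strand: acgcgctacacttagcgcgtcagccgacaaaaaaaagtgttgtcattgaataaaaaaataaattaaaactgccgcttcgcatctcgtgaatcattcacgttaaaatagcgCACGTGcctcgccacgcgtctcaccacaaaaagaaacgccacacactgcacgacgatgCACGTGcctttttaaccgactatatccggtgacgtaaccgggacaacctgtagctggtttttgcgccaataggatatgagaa

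Among genes of rapidly induced transcription factors, more were called higher than lower. Of 65 measured genes of the ERF family, whose members bind the GCC box or drought elements, 11 were called higher and 2 lower, with a median of 0.09. ERF2 had an estimated 193 normalized counts in pfd4 seedlings and 32.5 in WT seedlings (2.57 ± 0.25, adjusted p = 6.73e-22), and ERF5, beside it on chromosome 5, 209 in pfd4 and 108 in WT (0.96 ± 0.21, adjusted p = 0.000282). ERF105 had 331 in pfd4 and 55.5 in WT (2.58 ± 0.26) and ERF104 619.8 in pfd4 and 158 in WT (1.97 ± 0.25). ERF1A (1.39 ± 0.23) and ERF6 (1.34 ± 0.29), which like ERF5 and ERF104 belong to the quickly induced stress branch of the family, followed. The genes called lower were TINY2 at -1.20 ± 0.23 and AT2G44940 at -0.74 ± 0.16. ACS6, which encodes an ethylene synthesis enzyme, had 899 in pfd4 and 378 in WT (1.252 ± 0.18, adjusted p = 4.71e-10).

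Of 47 WRKY genes, a family of defence regulators, 5 were called higher and none lower. WRKY40 had an estimated level of 120.3 in pfd4 and 39.2 in WT (1.62 ± 0.35) and WRKY46 of 100.1 in pfd4 and 46.3 in WT (1.11 ± 0.30), and smaller rises were called for WRKY18 (0.47 ± 0.15), WRKY21 (0.38 ± 0.11) and WRKY57 (0.39 ± 0.12). The zinc finger gene ZAT10, a stress-induced repressor, had 341 in pfd4 and 139 in WT (1.297 ± 0.28), while ZAT6 was not called (0.11 ± 0.20). NAC genes moved both ways, with 6 of 53 called higher and 5 lower. Among the higher ones were ANAC056 (1.06 ± 0.12), RD26, a gene of drought and senescence (0.60 ± 0.14), and ORE1, a promoter of leaf senescence (0.65 ± 0.22). Those called lower included VND4 (-1.21 ± 0.26) and VND6 (-0.88 ± 0.27), regulators of xylem vessels. MYB51, an activator of indole glucosinolate synthesis, was higher at 0.996 ± 0.17 (adjusted p = 1.43e-06), and PR5, a marker of salicylic acid responses, was lower at -0.84 ± 0.23 (adjusted p = 0.00724), the call among 9 salicylic acid genes.

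Most measured genes of the late steps of anthocyanin synthesis were called higher. Late genes turn dihydroflavonols into coloured, glycosylated anthocyanins. Of 11 measured late genes and regulators, 7 were called higher and none lower, with a median of 1.17. DFR, the first committed enzyme, had an estimated 1127 normalized counts in pfd4 seedlings and 327 in WT seedlings (1.79 ± 0.22, adjusted p = 1.73e-13). LDOX, the next enzyme, had 845 in pfd4 and 299 in WT (1.497 ± 0.23), and TT19, which carries anthocyanin to the vacuole, 504 in pfd4 and 176 in WT (1.52 ± 0.22). UF3GT (2.16 ± 0.37), UGT75C1 (1.17 ± 0.24) and 5MAT (1.27 ± 0.26) add sugars and an acyl group. PAP1, the MYB activator of these genes, had 142 in pfd4 and 63.9 in WT (1.15 ± 0.37, adjusted p = 0.0300), and its antagonist MYBL2, at 0.56 ± 0.21, was not called (adjusted p = 0.0826). Of 10 early genes, TT7 (0.85 ± 0.16) and CHS, the entry enzyme (0.43 ± 0.12), were called higher and MYB111, an activator of flavonol genes, lower (-0.88 ± 0.21). F3H (0.13), CHI (0.22) and FLS1 (0.14) were not called.

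In the phenylpropanoid trunk, which feeds both flavonoids and lignin, more genes were called lower than higher. Of 15 measured genes, 6 were called lower and 1 higher, with a median of -0.26. PAL1, one of the entry enzymes, had an estimated 14701 normalized counts in pfd4 seedlings and 19729 in WT seedlings (-0.42 ± 0.12), PAL2 11494 in pfd4 and 15219.9 in WT (-0.41 ± 0.14) and PAL4 922 in pfd4 and 1467 in WT (-0.67 ± 0.11). 4CL1 (-0.42 ± 0.12), 4CL2 (-0.46 ± 0.13) and HCT (-0.31 ± 0.08), which act further along the lignin branch, were also lower. PAL3 was the gene called higher (0.44 ± 0.12). None of these 7 passed the test against a change of 25%.

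Some genes that mark low sugar status were called higher in pfd4. Of 24 genes of sugar starvation and senescence, 9 were called higher and 1 lower, and 14 were not called (median 0.31). ASN1, an asparagine synthetase that is repressed by light and sugar, had an estimated 1808 normalized counts in pfd4 seedlings and 378 in WT seedlings (2.26 ± 0.42, adjusted p = 9.16e-06). Class II trehalose-phosphate synthase genes are likewise repressed by sugar: TPS8 had 5620.4 in pfd4 and 2104 in WT (1.42 ± 0.12), TPS11 1881 in pfd4 and 804 in WT (1.23 ± 0.11) and TPS9 2156 in pfd4 and 1324 in WT (0.70 ± 0.11). DIN10 and SIP2, raffinose-synthase-like genes, had 9094 in pfd4 and 3215 in WT (1.4999 ± 0.39) and 16109 in pfd4 and 7710.5 in WT (1.06 ± 0.15). Transporters in the group were STP14 (1.13 ± 0.17) and SWEET12 (0.79 ± 0.14), which move monosaccharides and sucrose. The gene called lower, DIN2, a beta-glucosidase, had 55.6 normalized counts in pfd4 seedlings and 203 in WT seedlings (-1.87 ± 0.38, adjusted p = 7.25e-05), so its direction was opposite to that of the other called members. In the nitrogen list, ASN1 was joined by the nitrate-induced repressors HHO2 (0.52 ± 0.10), HHO3 (0.63 ± 0.15) and LBD38 (0.35 ± 0.11), making 4 of 23 called higher and none lower.

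Inositol genes were split between synthesis and breakdown. MIPS1, the enzyme that makes myo-inositol phosphate, was lower, with 9694 normalized counts in pfd4 seedlings and 16322 in WT seedlings (-0.75 ± 0.15). The inositol oxygenase genes MIOX2, at 527 in pfd4 and 243 in WT (1.12 ± 0.22), and MIOX4, at 167 in pfd4 and 27.0 in WT (2.63 ± 0.38), were higher. Of the nudix hydrolases, a family that cleaves nucleoside diphosphate derivatives, NUDT24 had 111 in pfd4 and 14.3 in WT (2.96 ± 0.40) and NUDT8 119.6 in pfd4 and 61.0 in WT (0.97 ± 0.29). These 5 were the calls among 33 genes of both families.

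**Figure D2:**
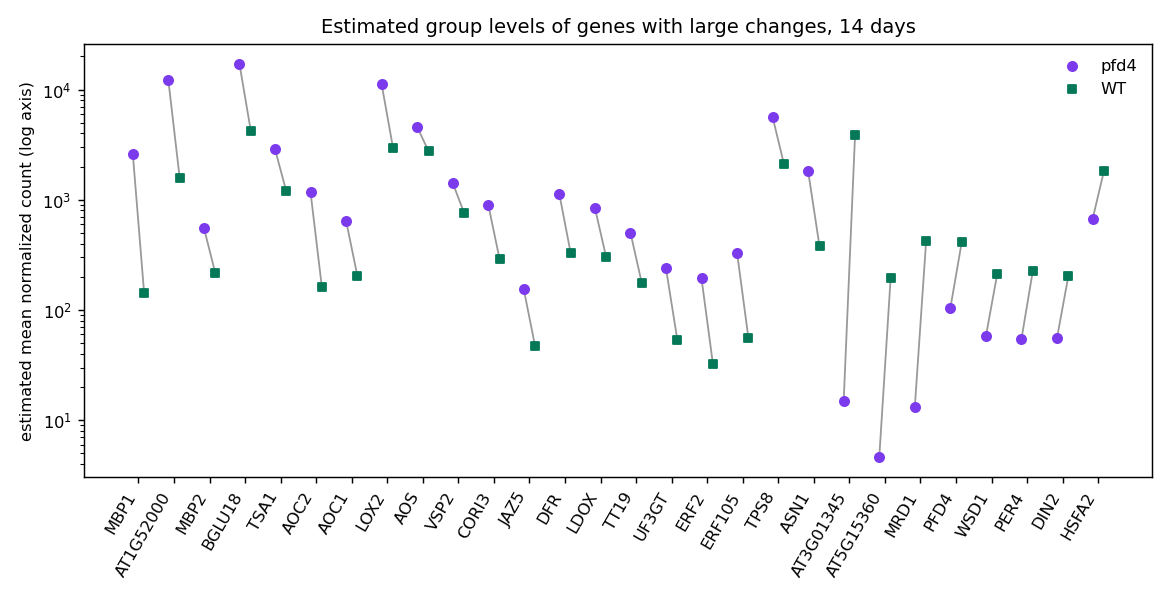
Estimated group levels in normalized counts (log axis) of genes with large changes, with pfd4 as circles and WT as squares joined by a line, computed from the deposited mean and fold change, with no values per library. Lines that fall to the right belong to genes higher in pfd4, such as MBP1 at 2615 in pfd4 and 142 in WT, and lines that climb belong to genes lower in pfd4, such as AT3G01345 at 15.1 in pfd4 and 3899.8 in WT.

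Several light-harvesting genes were called slightly higher. LHCA and LHCB genes encode the chlorophyll-binding antenna proteins of both photosystems and are among the most abundant nuclear transcripts of leaves. The list also holds RBCS genes, which encode the small subunit of Rubisco. Of 24 measured genes of the list, 11 were called higher and none lower, and the median was 0.22. RBCS1A (0.08 ± 0.11) and RBCS3B (0.02 ± 0.17) were not called. LHCB1.2 had an estimated 100530.0 normalized counts in pfd4 seedlings and 77348 in WT seedlings (0.38 ± 0.08, adjusted p = 7.85e-05), and LHCB2.3 28549 in pfd4 and 21980.4 in WT (0.38 ± 0.09). LHCA4 had 121114 in pfd4 and 97253 in WT (0.32 ± 0.07) and LHCB3 102670.0 in pfd4 and 84639.5 in WT (0.28 ± 0.07). The called rises lay between 0.22 and 0.38, and none of the 24 genes passed the test against a change of 25%. LHCB1 genes are near-identical, so their reads may be partly shared. A G-box was found in 4 of the 11 promoters called higher and in 5 of all 24 measured. Of 55 nuclear genes of the photosystems and electron transport, 6 were called higher and 1 lower, with PSAD-2, a subunit of photosystem I, at 0.51 ± 0.09 (adjusted p = 3.45e-06) and PETE1, a plastocyanin, at 0.33 ± 0.08. GLK1, an activator of photosynthesis genes, was lower at -0.30 ± 0.09 (adjusted p = 0.0170), the call among 21 genes of chlorophyll synthesis and its regulators.

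Photoreceptor and light-signalling genes showed 5 higher calls and 1 lower among 23. The PIF factors promote growth and are degraded in light: PIF4 had an estimated 2539 normalized counts in pfd4 seedlings and 1637 in WT seedlings (0.63 ± 0.11, adjusted p = 1.35e-06), and PIF5 (0.35 ± 0.09) and PIF1 (0.41 ± 0.12) were also higher. The cryptochrome genes CRY1 (0.34 ± 0.08) and CRY2 (0.34 ± 0.07), encoding blue-light receptors, were higher, and HYH, a partner of HY5, was lower (-0.37 ± 0.12). B-box zinc finger genes, many of which act between light and the clock, were called in both directions, 5 higher and 6 lower of 27 (4 higher and 3 lower at a false discovery rate of 0.01). The B-box list was added or edited after the values were seen. Higher were BBX27, with 962 in pfd4 and 473 in WT (1.02 ± 0.15), BBX17 (1.249 ± 0.22) and BBX14 (0.79 ± 0.14). The microprotein genes BBX30, with 212 in pfd4 and 457 in WT (-1.11 ± 0.19), and BBX31 (-0.999 ± 0.20), and BBX32 (-0.68 ± 0.14), were lower. Of 23 clock genes, RVE3 (-0.85 ± 0.14), PRR9 (-0.50 ± 0.13) and LNK1 (-0.33 ± 0.09), all clock-associated, were called lower and none was called higher. Of 25 floral regulators, the repressor genes FLC, at 148 in pfd4 and 69.2 in WT (1.099 ± 0.21), MAF5, at 50.6 in pfd4 and 13.6 in WT (1.89 ± 0.41), and TEM2 (1.26 ± 0.39) were called higher.

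Cytosolic chaperone genes fell almost as a family. HSP70 and HSP90 proteins fold and mature client proteins and restrain heat shock factors. Of the 9 measured cytosolic members, 8 were called lower and none higher, with a median of -0.80. HSC70-3 had an estimated 17503 normalized counts in pfd4 seedlings and 41492 in WT seedlings (-1.245 ± 0.15, adjusted p = 7.1e-14). HSP90.1, the heat-inducible HSP90, had 6764 in pfd4 and 15028 in WT (-1.15 ± 0.16, adjusted p = 3.58e-10). The constitutive HSP90 genes followed, HSP90.2 with 18464 in pfd4 and 33952 in WT (-0.88 ± 0.15) and HSP90.3 with 15886 in pfd4 and 27727 in WT (-0.80 ± 0.14). These sequences are highly similar, so a part of their reads may be shared. The smallest called fall was that of HSC70-1 (-0.22 ± 0.08, adjusted p = 0.0466), whose call was lost with both groups centred on equal total counts, and HSP70B, at 0.25 ± 0.19, was not called. The test against a change of 25% was passed by 5 of the 8.

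Some co-chaperone genes of these machines were called lower too. Of 27 genes of HSP101 and co-chaperones, 11 were called lower and none higher. HSP101, the disaggregase that dissolves protein clumps after heat, had an estimated 2018 normalized counts in pfd4 seedlings and 4935 in WT seedlings (-1.29 ± 0.16, adjusted p = 1.39e-12). FES1A, a nucleotide exchange factor of HSP70, had 986 in pfd4 and 2383 in WT (-1.27 ± 0.16), and HOP3, which bridges HSP70 and HSP90, 2709 in pfd4 and 4883 in WT (-0.85 ± 0.16). ROF1 (-0.63 ± 0.13) and ROF2 (-0.70 ± 0.17), immunophilins that bind HSP90, and MBF1C, a coactivator of the heat response (-0.90 ± 0.12), were lower. Small heat shock proteins hold unfolding proteins in solution: 10 of 29 genes were called lower and none higher, with HSP17.6A-CI at 307 in pfd4 and 772 in WT (-1.33 ± 0.21) and HSP17.8 at 982 in pfd4 and 1902 in WT (-0.95 ± 0.16). The DnaJ family, which delivers clients to HSP70, was mixed, with 7 of 101 lower, among them J3 (-0.37 ± 0.09) and AT2G20560 (-0.72 ± 0.12), and 4 higher, among them J11 (0.81 ± 0.19) and J8 (0.69 ± 0.15), which are chloroplast proteins. For comparison, 3.81% of all genes were called lower and 3.94% higher. In organelles, 3 of 16 genes were called lower, MTHSC70-2 (-0.48 ± 0.14), HSP60 (-0.35 ± 0.12) and HSP90.6 (-0.34 ± 0.11). Of 15 genes of the unfolded protein response in the endoplasmic reticulum, ERDJ3A was the call (-0.69 ± 0.18).

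The factors that drive heat shock genes were measured in the same table. Of 14 heat shock factor genes, HSFA2, which sustains the heat response, was called lower with 664 normalized counts in pfd4 seedlings and 1815 in WT seedlings (-1.45 ± 0.20, adjusted p = 3.54e-10), and HSFB2B, a repressor of the class, at -0.47 ± 0.13. The master factors HSFA1A (-0.02), HSFA1B (0.10), HSFA1D (-0.22) and HSFA1E (0.06) were not called. The heat shock element was searched on both strands as the blocks GAA, TTC and GAA with NN, any pair of bases, between neighbouring blocks. It was found in 0.405% of all 17774 promoters, in 1 of the 10 small heat shock protein promoters called lower and in none of the 8 of HSP70 and HSP90 called lower, within 250 bases before the gene start. The HSFA2 promoter holds a match, in capitals, and is shown because HSFA2 had the largest fall among heat shock factors.
HSFA2, chr2:11135374-11135623, plus strand: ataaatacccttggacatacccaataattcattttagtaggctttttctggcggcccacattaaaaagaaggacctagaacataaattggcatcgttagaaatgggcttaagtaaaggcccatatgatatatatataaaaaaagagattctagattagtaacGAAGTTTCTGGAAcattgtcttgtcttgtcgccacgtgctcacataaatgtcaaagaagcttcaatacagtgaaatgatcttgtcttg

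**Figure D3:**
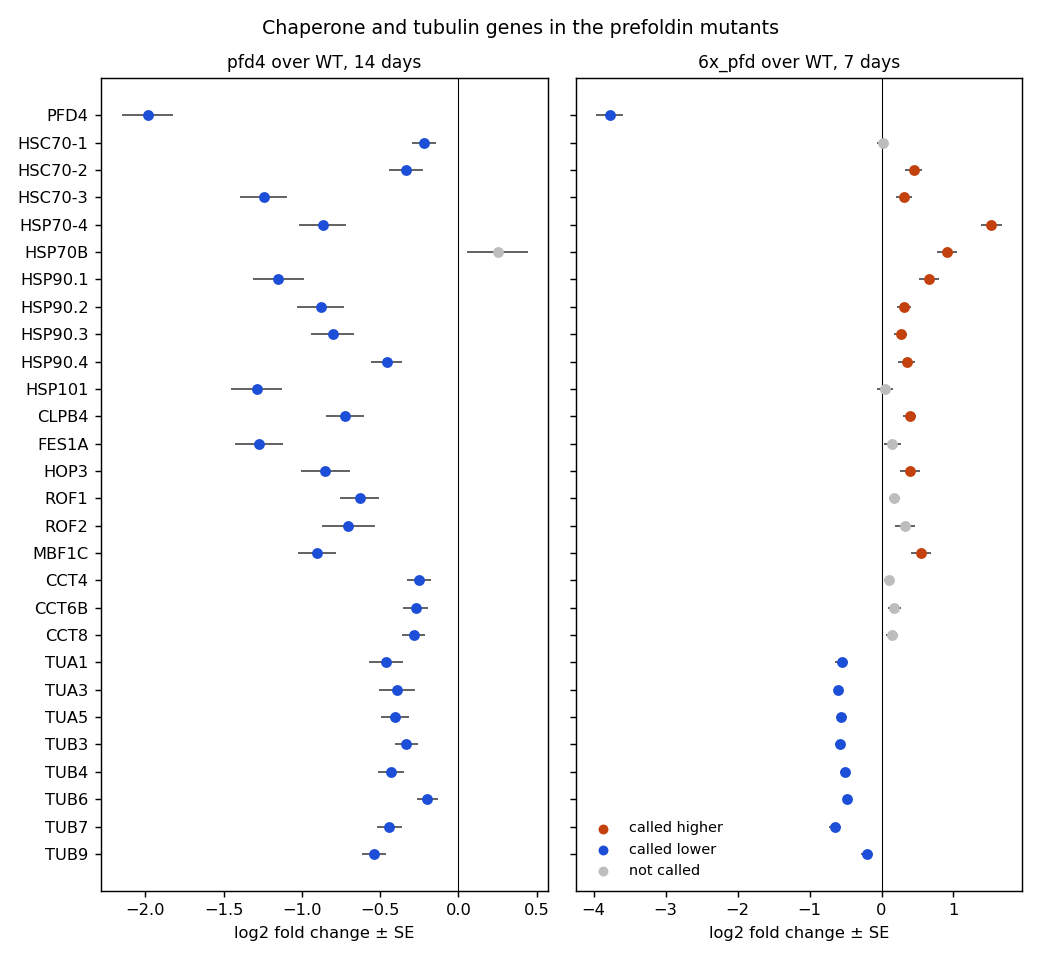
Log2 fold changes with SE bars from the deposited tables for PFD4, all measured cytosolic HSP70 and HSP90 genes and called members of the co-chaperone, CCT and tubulin lists, in pfd4 over WT at 14 days (left) and 6x_pfd over WT at 7 days (right). Tubulin genes lie left of 0 in both panels, while HSP70-4 lies at -0.87 in the left panel and at 1.53 in the right.

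Among direct partners and clients of prefoldin, the called changes were small and downward. CCT is the double-ring chaperonin that completes tubulin and actin folding. All 9 measured CCT genes had negative values, with a median of -0.18, and 3 were called lower: CCT8 (-0.29 ± 0.07, adjusted p = 0.00236), CCT4 (-0.25 ± 0.07, adjusted p = 0.0154) and CCT6B (-0.27 ± 0.08, adjusted p = 0.0163). Of 9 beta-tubulin genes, 5 were called lower and none higher (median -0.33). TUB9 had an estimated 1682 normalized counts in pfd4 seedlings and 2444 in WT seedlings (-0.54 ± 0.08, adjusted p = 2.72e-10), and TUB7 (-0.44 ± 0.08), TUB4 (-0.43 ± 0.08), TUB3 (-0.33 ± 0.07) and TUB6 (-0.20 ± 0.07) followed. Of 6 alpha-tubulin genes, TUA1, known mainly from pollen (-0.46 ± 0.11), TUA5 (-0.40 ± 0.09) and TUA3 (-0.39 ± 0.11) were called lower, while TUA6 stood at 0.01 ± 0.06. The gamma-tubulin gene TUBG1, needed to start microtubules, was lower at -0.36 ± 0.11 (adjusted p = 0.0237). The tubulin folding cofactor genes, between -0.12 (TFCC) and 0.06 (TFCA), were not called, and among 6 actin genes ACT11 was called lower (-0.44 ± 0.15, adjusted p = 0.0478). With both groups centred on equal total counts, the calls of ACT11 and TUB6 were lost. No call fell on 34 genes of microtubule-associated proteins or on 25 kinesin genes, of which 4 and 3 had an unadjusted p below 0.05 (DESeq2), and no tubulin or CCT gene passed the test against a change of 25%.

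Many genes that prepare and copy DNA were called lower. Of 30 measured DNA replication genes, 15 were called lower and none higher, with a median of -0.40. All 6 subunit genes of the MCM helicase, which opens the double strand, were among them: MCM2 (-0.56 ± 0.11), MCM3 (-0.48 ± 0.13), MCM4 (-0.49 ± 0.12), MCM5 (-0.37 ± 0.11), MCM6 (-0.60 ± 0.15) and MCM7 (-0.51 ± 0.10). CDT1A, which loads that helicase, had an estimated 269 normalized counts in pfd4 seedlings and 453 in WT seedlings (-0.75 ± 0.13, adjusted p = 1.66e-06). The ribonucleotide reductase genes TSO2, at 2327 in pfd4 and 3562 in WT (-0.61 ± 0.08, adjusted p = 2.48e-11), and RNR1, at 1640.4 in pfd4 and 2393 in WT (-0.54 ± 0.12), supply deoxynucleotides. DNA polymerase alpha and its primase were represented by POLA1 (-0.36 ± 0.11), POLA2 (-0.49 ± 0.14) and POLA3 (-0.65 ± 0.14). No call fell on 32 mitosis genes, 1 of which had an unadjusted p below 0.05 (DESeq2) and whose median was -0.06, and among 41 histone genes 1 was called higher and 1 lower. The replication falls were small, and 1 of the 15 passed the test against a change of 25%.

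E2F factors switch on replication genes at the start of S phase. Their site was searched as TTTCCCGC, TTTGGCGC or TTTCGCGC on both strands. It was found in 12 of 29 promoters of measured replication genes and in 8 of the 15 called lower (53.3%), against 1.16% of all 17774 promoters. The site II element TGGGCC, common in promoters of growth genes, was found in 18 of the 29 (62.1%) and in 13 of the 15 called lower (86.7%). It was found in 17.2% of all promoters and in 18.2% of those of all genes called lower. Among small heat shock protein promoters it was found in 10 of 29 measured (34.5%) and in 8 of the 10 called lower (80%). The promoters of MCM2, MCM6 and POLA3 show where the E2F letters lie, in capitals, ending 6, 38 and 21 bases before the annotated gene start. On the MCM6 and POLA3 lines the match is on the opposite strand.
MCM2, chr1:16969964-16970213, plus strand: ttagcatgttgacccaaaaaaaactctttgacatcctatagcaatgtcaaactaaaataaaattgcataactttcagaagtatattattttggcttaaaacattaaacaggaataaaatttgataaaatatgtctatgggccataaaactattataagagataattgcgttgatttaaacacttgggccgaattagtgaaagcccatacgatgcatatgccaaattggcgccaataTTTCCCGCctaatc
MCM6, chr5:18010668-18010917, minus strand: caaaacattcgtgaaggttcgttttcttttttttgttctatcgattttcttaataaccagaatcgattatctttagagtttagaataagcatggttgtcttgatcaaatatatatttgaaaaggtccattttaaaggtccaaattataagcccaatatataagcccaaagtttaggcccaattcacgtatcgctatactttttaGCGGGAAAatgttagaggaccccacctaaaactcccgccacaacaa
POLA3, chr5:16760596-16760845, plus strand: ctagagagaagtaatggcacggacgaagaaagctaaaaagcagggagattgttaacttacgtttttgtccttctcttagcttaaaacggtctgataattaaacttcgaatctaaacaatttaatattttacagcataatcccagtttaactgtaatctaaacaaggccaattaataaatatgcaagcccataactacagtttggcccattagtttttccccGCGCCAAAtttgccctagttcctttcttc

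Some ribosome assembly genes were also called lower. Of 47 nucleolar genes of ribosome biogenesis, 12 were called lower and none higher, with a median of -0.12. NUC-L1, the nucleolin of ribosomal RNA transcription, had an estimated 6726 normalized counts in pfd4 seedlings and 8204 in WT seedlings (-0.29 ± 0.09), and FIB2, a fibrillarin that methylates ribosomal RNA, 1519.8 in pfd4 and 1912 in WT (-0.33 ± 0.09). The list of 290 measured cytosolic ribosomal protein genes held 1 higher and 2 lower calls and had a median of 0.02. The assembly list was added or edited after the values were seen, so its contrast with the ribosomal protein list is not a test. In the promoters of the 12 called assembly genes, site II was found in 7 (58.3%), against 17 of all 47 measured (36.2%). None of the 12 passed the test against a change of 25%.

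Most measured primary response genes of cytokinin, a hormone of cell division and greening, were called lower. Type-A response regulators are induced by cytokinin and dampen its signal. Of 8 measured members, 6 were called lower and none higher, with a median of -0.47. ARR15 had an estimated 121 normalized counts in pfd4 seedlings and 314 in WT seedlings (-1.37 ± 0.18, adjusted p = 3.27e-11), ARR7 477 in pfd4 and 950.0 in WT (-0.99 ± 0.15) and ARR5 242 in pfd4 and 416 in WT (-0.78 ± 0.19). ARR6 (-0.64 ± 0.18), ARR4 (-0.30 ± 0.08) and ARR8 (-0.27 ± 0.08) were lower by less, and ARR9 (0.03 ± 0.09) and ARR16 (-0.09 ± 0.26) were not called. The type-A list was added or edited after the table was seen, so its contrast with other cytokinin genes is not a test. The list of 25 other cytokinin genes held 2 higher calls and 1 lower, the cytokinin receptor AHK4 (-0.30 ± 0.10, adjusted p = 0.0417), whose call was lost under equal totals. In the P450 list, CYP735A2, which makes trans-zeatin type cytokinins, was lower as well, with 54.6 in pfd4 and 108 in WT (-0.98 ± 0.27, adjusted p = 0.00650). ARR15 and ARR7 were the 2 type-A genes that passed the test against a change of 25%.

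Most measured genes of xylem and the secondary wall were called lower in pfd4. Of 14 measured genes, 10 were called lower and none higher, and the median was -0.69. The 3 cellulose synthases of the secondary wall fell alike: CESA4 had an estimated 397 normalized counts in pfd4 seedlings and 733 in WT seedlings (-0.88 ± 0.20), CESA7 297 in pfd4 and 516 in WT (-0.80 ± 0.20) and CESA8 295 in pfd4 and 521 in WT (-0.82 ± 0.18). The cysteine proteases XCP1 (-0.69 ± 0.20) and XCP2 (-0.86 ± 0.18), which clear the contents of dying vessel cells, and the lignin laccase LAC4 (-0.69 ± 0.20) were lower, as was TED7 (-1.48 ± 0.41, adjusted p = 0.00835), a vessel differentiation gene outside the list. The vessel regulators VND4 and VND6 were named above. No call fell on the 8 measured genes of the primary wall cellulose synthase list, 1 of which had an unadjusted p below 0.05 (DESeq2) and whose median was -0.04. Both lists were added or edited after the table was seen, so the contrast between them is not a test. The other 4 vascular markers, SUC2 (-0.33 ± 0.12, adjusted p = 0.0544), SEOR1 (-0.13 ± 0.11), SWEET11 (-0.15 ± 0.11) and APL (0.21 ± 0.11), were not called. CESA7 and XCP1 also stand in the vascular marker list, and the part that a smaller share of xylem cells has in these values was not tested. No gene of the list passed the test against a change of 25%.

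Of 14 genes of root hairs and the Casparian strip, the lignin barrier of the endodermis, 3 were called lower and none higher, at a median of -0.52. CASP2 had an estimated 163 normalized counts in pfd4 seedlings and 258 in WT seedlings (-0.66 ± 0.16) and ESB1, which organises the strip, 563 in pfd4 and 767 in WT (-0.45 ± 0.12). RHD6, which starts root hairs, was at -0.85 ± 0.32 and was not called (adjusted p = 0.0801), and MYB36, the activator of Casparian strip genes, was at -0.05 ± 0.28. Of the root markers outside the strip, SHR was at 0.12 ± 0.11, PHO1 at 0.09 ± 0.12, PYK10 at 0.14 ± 0.07, SCR at -0.29 ± 0.10 and PRP3 at -0.28 ± 0.26, none of them called. Class III peroxidases, many of which act in root walls, held 7 lower calls and 1 higher among 49, with PER4 at 54.4 in pfd4 and 226 in WT (-2.05 ± 0.40) and PER72 at 425 in pfd4 and 659 in WT (-0.63 ± 0.14). Among 20 expansins, which loosen walls, EXPA1 (-0.61 ± 0.14), EXPA5 (-0.59 ± 0.10) and EXPA10 (-0.46 ± 0.11) were called lower.

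A part of the genes of wax, cutin and suberin, the lipids that seal plant surfaces, was called lower. Of 44 measured genes of wax, cutin and suberin, 11 were called lower and 1 higher (median -0.25). WSD1, the wax ester synthase, had an estimated 57.8 normalized counts in pfd4 seedlings and 212 in WT seedlings (-1.88 ± 0.30, adjusted p = 9.93e-08). CER1, the alkane-forming enzyme, had 827 in pfd4 and 1312 in WT (-0.67 ± 0.10), and CER2, which helps to lengthen fatty acids, 1319 in pfd4 and 1771 in WT (-0.42 ± 0.10). The elongation enzyme KCS1 (-0.71 ± 0.15) and the activating enzymes LACS1 (-0.64 ± 0.11) and LACS2 (-0.34 ± 0.10) were lower. On the cutin side, GPAT6 (-0.48 ± 0.14), CYP86A2 (-0.35 ± 0.11) and CYP77A6 (-0.62 ± 0.17) were lower. KCS16, an elongase of long wax chains in leaf hairs, was the gene called higher (0.50 ± 0.12). WSD1 was the member that passed the test against a change of 25%.

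A part of the genes that regulate the iron deficiency response was called lower. IMA peptides report iron shortage, and BTS is an iron-binding ubiquitin ligase that holds the response back. Of 19 regulators, 5 were called lower and none higher, at a median of -0.31. IMA1 had an estimated 365 normalized counts in pfd4 seedlings and 922 in WT seedlings (-1.34 ± 0.22, adjusted p = 8.82e-08), IMA2 540.5 in pfd4 and 1150.3 in WT (-1.09 ± 0.23) and IMA3 4563 in pfd4 and 7089 in WT (-0.64 ± 0.11). PYE, a repressor within the response, had 1383 in pfd4 and 2549.9 in WT (-0.88 ± 0.14) and BTS 13325 in pfd4 and 20714 in WT (-0.64 ± 0.15). The Ib bHLH genes, the activators, had large negative values with wide errors and were not called: BHLH100 -1.66 ± 0.59 (adjusted p = 0.0570), bHLH39 -1.40 ± 0.60 and bHLH38 -1.41 ± 0.64. FIT, the root regulator of uptake, was at -0.41 ± 0.19 and was not called. These Ib bHLH genes and FIT were chosen after their values were seen. Among 28 genes of iron uptake, transport and storage, 5 were lower, with NAS4, a nicotianamine synthase, at -0.74 ± 0.13, the vacuolar transporter ZIF1 at -0.63 ± 0.13 and OPT3, the phloem iron carrier, at -0.39 ± 0.13.

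Metabolic families gave scattered calls. Of 140 tested cytochrome P450 genes, 13 were called higher and 6 lower, among the higher ones BAS1, which inactivates brassinosteroids (0.77 ± 0.14), and CYP707A3, which breaks down abscisic acid (1.17 ± 0.33). The 86 UDP-glycosyltransferases held 9 higher calls and 3 lower, with UGT85A4 at 1.098 ± 0.18 and UGT74F2, which glycosylates salicylic acid, at 0.99 ± 0.22. Over all genes, 3.94% were called higher and 3.81% lower, so the lower calls of both families lay near that share. No gene was called in 16 of the 90 lists, among them the proteasome (36 genes), the LSM proteins of RNA decay and splicing (9 genes), Aux/IAA repressors (21 genes) and the 66 measured chloroplast-encoded genes (deposited DESeq2 test). At an unadjusted p below 0.05, these lists held 2, 0, 4 and 0 genes, in that order. The chloroplast-encoded genes had log2 fold changes from -0.57 to 1.83, and the proteasome genes from -0.19 to 0.20. The lack of calls among chloroplast-encoded genes therefore does not show that they were unchanged. In all, 343 called genes were members of some list and 1080 of none.

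**Figure D4:**
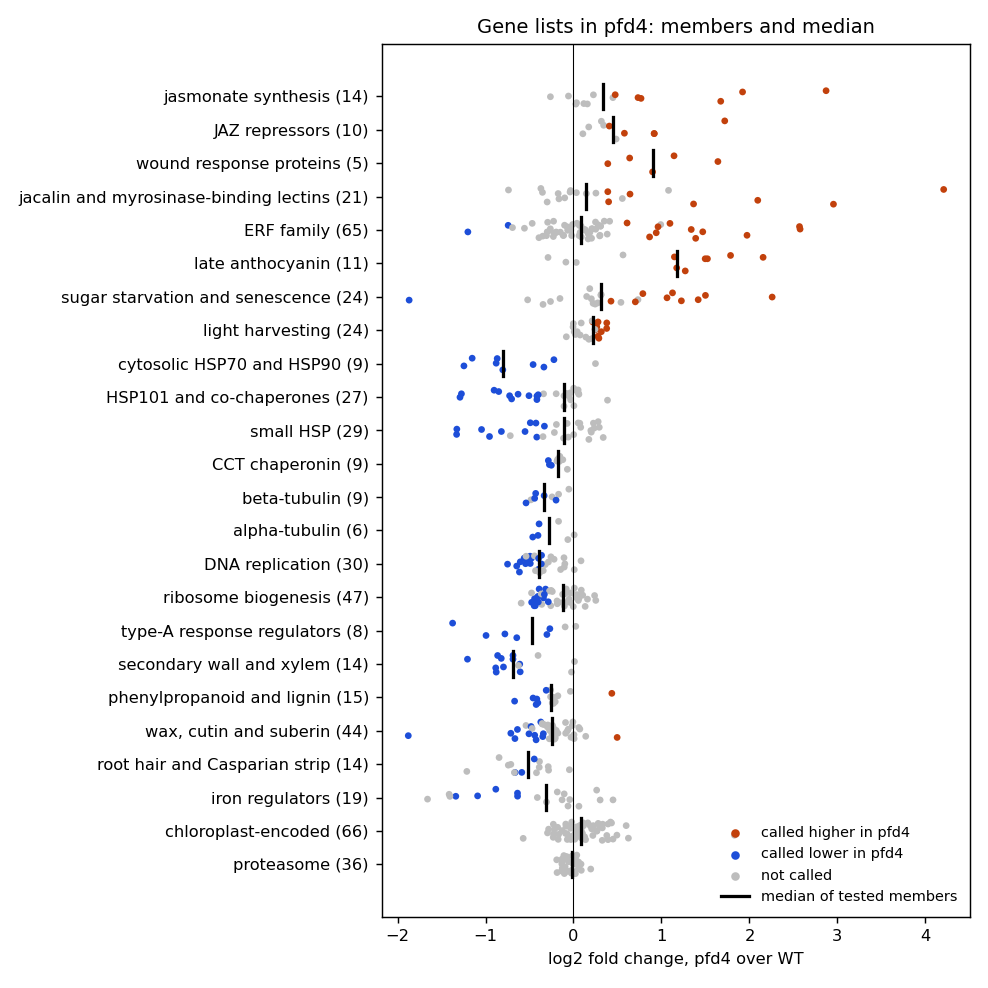
Log2 fold changes, pfd4 over WT, of the tested members of 24 lists (numbers of genes in brackets), coloured by call, with a bar at each list's median. The jacalin list extends to the right up to 4.21 and the wound list up to 1.64, while the median of cytosolic HSP70 and HSP90 lies at -0.80 and that of the proteasome at -0.02.

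The largest changes of all were near-complete losses of a few transcripts. AT3G01345, an uncharacterized protein-coding gene, had an estimated 15.1 normalized counts in pfd4 seedlings and 3899.8 in WT seedlings (-8.01 ± 0.25, adjusted p = 6.94e-216). AT5G15360, also uncharacterized, had 4.59 in pfd4 and 194 in WT (-5.40 ± 0.43), and MRD1, named for its fall in the methionine-accumulating mto1 mutant, 13.1 in pfd4 and 427 in WT (-5.02 ± 0.30). On the chromosome, MRD1 was followed by HEI10 (-1.13 ± 0.27) and MUM4 (-0.24 ± 0.08), the next measured genes, which were called lower too, and preceded by MSL4 (0.11 ± 0.21), which was not called. Of the nearest measured genes around AT3G01345, AT3G01350 was called lower (-0.59 ± 0.17) and AT3G01340 was not (0.02 ± 0.09). Around AT5G15360, SPX4 (0.25 ± 0.14), ENODL17 (-0.02 ± 0.17) and AT5G15390 (0.14 ± 0.12) were not called. These 8 neighbouring genes were chosen after their values were seen. In all, 11 runs of at least 3 adjacent measured genes with calls in one direction were found, 6 of higher and 5 of lower genes. They included VSP2, VSP1 and BZIP9, which were higher, MSH7, MBF1C and ALDH2C4, which were lower, and the longest run, SNL6, ARR4, ZFP5 and AT1G10490, which was lower. BZIP9, MSH7, ALDH2C4, SNL6, ZFP5 and AT1G10490 were chosen after their values were seen.

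Among genes that do not encode proteins, 6 of 178 lncRNA genes and 8 of 86 other ncRNA genes were called higher and 1 lower in each class, against 3.94% higher and 3.81% lower over all genes. Of 78 pseudogenes, 3 were called higher and 5 lower, and of 71 transcribed pseudogenes 5 were called higher and none lower. No call fell on 89 snoRNA genes, 1 of which had an unadjusted p below 0.05 (DESeq2). AT1G67105, an ncRNA, had an estimated 265 normalized counts in pfd4 seedlings and 48.0 in WT seedlings (2.46 ± 0.20, adjusted p = 6.78e-31). AT2G16367, annotated as a transcribed pseudogene, had 2096 in pfd4 and 158 in WT (3.73 ± 0.47). The sources used here do not say whether reads were counted by strand, so reads of a noncoding gene and of a gene that overlaps it cannot be told apart. For 3 genes the deposited table gave a fold change but no p-value: AT1G26240 (-3.174 ± 1.42), CYP71A12 (-3.10 ± 1.17) and AT5G38910 (-4.57 ± 1.69). They are named here after their values were seen and are counted in no list.

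Set beside the 7-day 6x_pfd experiment, many pfd4 changes had a counterpart of opposite sign. There, 6519 of 19380 genes were called (33.6%), 3270 higher (16.9%) and 3249 lower (16.8%). Of the genes called higher in pfd4, 129 were called higher and 232 lower in 6x_pfd. Of those called lower in pfd4, 145 were called lower and 225 higher in 6x_pfd. Across the 18035 genes tested in both, the log2 fold changes had a Pearson correlation of -0.0046, given as a description over genes, which are not independent. The difference between the 2 effects, tested gene by gene with a Wald test on the deposited values, was called for 4299 genes (23.8%), of which 2166 lay above (12.0%) and 2133 below (11.8%) in pfd4. When both tables were centred on equal totals, the split was 1729 above and 2850 below, so no balance between the directions can be read from it. Genotype, age and light regime differ together between the experiments and cannot be told apart.

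The groups differed in whether they shared a direction. Of 11 late anthocyanin genes, 7 were called higher and none lower in pfd4, and 7 higher and 2 lower in 6x_pfd, with medians of 1.17 in pfd4 and 3.44 in 6x_pfd, and the DFR difference, pfd4 minus 6x_pfd, was -1.65 ± 0.48 on the log2 scale (adjusted p = 0.00380, Wald test). VSP2 and MBP1 rose in both, VSP2 by 0.90 ± 0.19 in pfd4 and 2.19 ± 0.34 in 6x_pfd, and MBP1 by 4.21 ± 0.21 in pfd4 and 3.14 ± 0.16 in 6x_pfd. Of 10 JAZ genes, 5 were called higher and none lower in pfd4, and 3 higher and 1 lower in 6x_pfd, with medians of 0.45 in pfd4 and 0.14 in 6x_pfd. JAZ5 was higher in both (1.72 ± 0.24 in pfd4 and 1.15 ± 0.40 in 6x_pfd), while JAZ6 was higher in pfd4 (0.92 ± 0.14) and lower in 6x_pfd (-0.53 ± 0.16), a difference of 1.44 ± 0.21 (adjusted p = 2.25e-10). Of 9 beta-tubulin genes, 5 were called lower in pfd4 and 8 in 6x_pfd, with medians of -0.33 in pfd4 and -0.51 in 6x_pfd.

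The light-harvesting and cytosolic chaperone lists had medians of opposite sign in the experiments, and IMA1 was called in opposite directions. The median of the 24 genes of the light-harvesting list, RBCS genes included, was 0.22 in pfd4 and -1.25 in 6x_pfd. In pfd4 11 of these 24 genes were called higher and 13 were not called, and none passed the test against a change of 25%. In 6x_pfd 17 of the 24 were called lower. The difference was called above 0 for 17 and below 0 for 1, which does not require a call in pfd4. LHCA4, for example, was at 0.32 ± 0.07 in pfd4 and -1.68 ± 0.13 in 6x_pfd. Cytosolic HSP70 and HSP90 genes had a median of -0.80 in pfd4 and 0.35 in 6x_pfd, where 8 of 9 were called higher. HSP70-4 was at -0.87 ± 0.15 in pfd4 and 1.53 ± 0.15 in 6x_pfd, a difference of -2.40 ± 0.21 (adjusted p = 5.91e-27). IMA1 was at -1.34 ± 0.22 in pfd4 and 1.58 ± 0.13 in 6x_pfd, a difference of -2.92 ± 0.25 (adjusted p = 5.73e-28). Abscisic acid and drought genes, all 17 of which were called higher in 6x_pfd, held 1 call in pfd4, RD26 at 0.60 ± 0.14, and the difference was called for all 17.

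**Figure D5:**
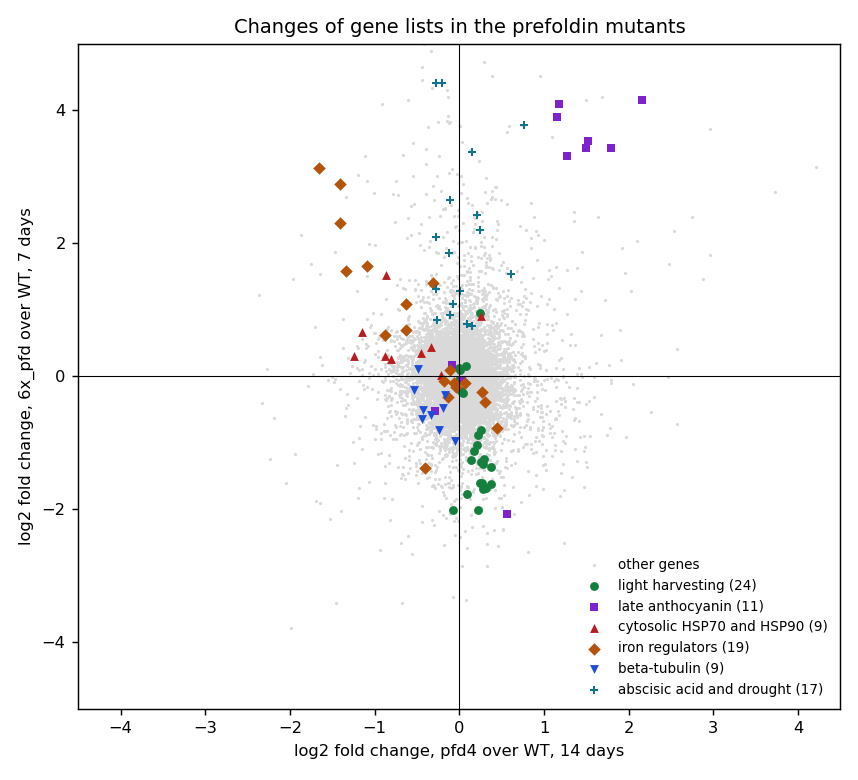
Log2 fold change in pfd4 over WT at 14 days (horizontal) against that in 6x_pfd over WT at 7 days (vertical) for genes with a value in both deposited tables, with 6 lists marked. Within the axes lie 18047 genes, and 5 more lie outside them. Called late anthocyanin genes lie at the upper right and most HSP70 and HSP90 genes at the upper left. Most genes of the light-harvesting list, which includes RBCS genes, lie at the lower right, with a list median of 0.22 in pfd4 and -1.25 in 6x_pfd.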

How the data were processed

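Stranded messenger RNA libraries of 3 pfd4 and 3 WT samples were compared, grouped by the titles and genotype labels. The authors' tools, per the submitters' processing notes, were cutadapt, HISAT2, HTSeq and DESeq2, with TAIR10 as build, and the notes give no versions, order or counting options. The deposited table gives, per the file headers, a mean normalized count per gene (a signal scaled for library size), a log2 fold change and its SE, a Wald score, and p-values before and after adjustment. Its name states a minimum RPKM set by the authors. The deposited score equalled the fold change over its SE within 6.76e-11, and a Benjamini-Hochberg adjustment over all rows gave back the deposited adjusted p-values within 2.67e-15. A separate deposited list of 198 genes repeats log2 fold changes and adjusted p-values of genes past a log2 change of 1, though its title states 199.

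No values per library were in the files, so depth per library is unknown and the planned edgeR fit was not run. The calls of the authors' DESeq2 test at an adjusted p below 0.05 were used instead. Fold changes run pfd4 over WT, a direction checked on PFD4. The difference between pfd4 and 6x_pfd effects is a two-sided Wald test on log2 fold changes over the root of summed squared SEs, adjusted over 18035 genes and tested on simulated data. The 3 samples are called biological in the series' design text. Each p-value weighs a fold change against its SE, through which the spread between the samples enters.

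Names, 90 lists and neighbours came from TAIR10.1 (RefSeq), which matched 18288 IDs and left 78 organelle IDs named only. The promoter windows were read from that build, and coordinates refer to it. Members and lists were chosen with earlier results of these data known. The lists of secondary wall, ribosome biogenesis, B-box, type-A response regulator and primary wall cellulose synthase genes were added or edited after the table was seen. The planned peroxidase list was narrowed to class III. The light-signalling and cytokinin lists are given without the B-box and type-A genes that were planned in them. Genes named are PFD1 to PFD6, in each direction the 10 largest changes at a mean count of at least 50 and the 10 smallest p-values, up to 8 called members per list and direction, members of lists of at most 16 genes, markers and genes flanking PFD4. Other names are said to be chosen after their values were seen, and MCM3, MCM5, POLA1, POLA2 and GPAT6 were likewise added to complete their pathways. Some genes that this rule names are not reported here. Lists are described by counts and medians with no set test. Python 3.11.15, pandas 2.3.3, numpy 2.4.6 and scipy 1.17.1 were used.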

Additional observations from a re-analysis of the deposited data

Results flagged for a closer look

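The results listed here had calls in opposite directions in pfd4 and 6x_pfd together with a called difference between the 2 effects (two-sided Wald test on the deposited log2 fold changes, Benjamini-Hochberg adjustment over 18035 genes). They are the 12 with the smallest p-values of that test among 112 such named genes, of which 52 were higher and 60 lower in pfd4. Each value is the log2 fold change in pfd4 minus that in 6x_pfd. Genotype, age and light regime cannot be told apart in it.

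Among genes of photosynthesis and light signalling, all higher in pfd4 and lower in 6x_pfd, the difference was 2.021 for PSAD-2, 1.356 for PSAO, 1.999 for LHCA4, 1.590 for LHCB4.2, 1.277 for PSBW, 1.248 for PSBQ-2 and 1.980 for LHCB3. For the B-box gene COL5 it was 2.297 and for PIF5 1.705.

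Lower in pfd4 and higher in 6x_pfd were RD29A, a cold and drought gene, with a difference of -3.143, and the iron peptide gene IMA1 with -2.922. AT3G01345 had the largest difference, -11.463, with -8.01 ± 0.25 in pfd4 and 3.45 ± 0.48 in 6x_pfd.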

How the results depend on the processing

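Of the 1423 genes called, 835 were called at a false discovery rate of 0.01 (469 higher, 366 lower), 198 also changed by 1 or more on the log2 scale (147 higher, 51 lower), and 165 passed a test against a change of 25% (128 higher, 37 lower). With a mean normalized count of at least 100, 1384 were called, 1351 of them among the deposited calls. Centred on equal totals, a shift of -0.0078 on the log2 scale, 1408 were called, 1379 of them among the deposited calls, with 753 higher and 655 lower (53.5% higher, against 50.9% as deposited). Of the named genes, 12 lost and 3 gained a call under that centring, and 244 lost it against a change of 25%. List counts moved by over 1.5 times in 36 of 180 cases at a false discovery rate of 0.01, 11 under equal totals and 9 under the count minimum. The 180 cases include counts of 0, which cannot move at the stricter rate. Of the lists, 16 held no call, 18 only higher calls and 31 only lower calls, so the share of movable counts that moved was larger. No named gene with a call changed its sign under equal totals. Medians of lists near 0 did change sign, such as that of DNA damage genes, at -0.19 with the count minimum and 0.01 as deposited.

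For the difference between the mutants, 4299 calls became 2879 at a false discovery rate of 0.01 (1479 above, 1400 below), 1071 with an absolute difference of at least 1 (566 above, 505 below), 4015 with the count minimum and 4579 under equal totals (1729 above, 2850 below).

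No paired analysis was possible because the files give no values per library. For the same reason the replicate block and the leave-one-out fits were not run. Sensitivity was limited at low counts, where the smallest called change in the lowest quintile of genes was 0.49.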

Other observations

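Other gene groups held few calls in pfd4. Of 22 copper and zinc genes, FSD1, the iron superoxide dismutase, was higher (0.28 ± 0.07, adjusted p = 0.00338, DESeq2) and so was MTP1, which stores zinc in the vacuole (0.27 ± 0.07), while the zinc transporter gene ZIP11 was lower (-0.31 ± 0.11). Of 18 genes of aliphatic glucosinolate synthesis, MAM1, which lengthens the methionine side chain, was higher (0.31 ± 0.08). Of 16 gibberellin genes, RGL3, a DELLA repressor that is also induced by jasmonate, had an estimated level of 147 in pfd4 and 77.3 in WT (0.93 ± 0.21, adjusted p = 0.000576).

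The cold genes RD29A (-0.57 ± 0.17) and ERD10 (-0.28 ± 0.09) were lower, 2 of 7 in their list. Of 10 genes of mitochondrial retrograde stress, BCS1 was higher, with 223 in pfd4 and 87.3 in WT (1.35 ± 0.27, adjusted p = 5.24e-05). Among 25 aquaporin genes, PIP2;4 (-0.85 ± 0.25) and PIP1;2 (-0.20 ± 0.07) were lower. The calls of ZIP11 and PIP1;2 were lost under equal totals. PME44, a pectin methylesterase gene that shapes cell walls, was lower with 1047 in pfd4 and 1533 in WT (-0.55 ± 0.08, adjusted p = 1.64e-08), the only call among 11 such genes.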
